A study of Homo sapiens with 3 samples.

Results

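The genes examined are 10 regulators and markers of the epithelial and mesenchymal states, chosen by name out of 20162 protein-coding genes. The epithelial genes are CDH1, ESRP1 and GRHL2, and the mesenchymal genes are CDH2, VIM, ZEB1, ZEB2, SNAI1, SNAI2 and TWIST1. Chromatin immunoprecipitation sequencing (ChIP-seq) had been carried out in untreated H2087 cells, an established human lung adenocarcinoma line. The labels list 3 samples, namely 1 library for histone H3 acetylated at lysine 27 (H3K27ac), 1 for histone H3 trimethylated at lysine 4 (H3K4me3) and 1 input, which was not analysed here. For each gene, the peaks over the gene body (hg19, GENCODE 44) or within 50 kb of it were collected, which gave 21 of 24096 H3K27ac peaks and 20 of 18585 H3K4me3 peaks.

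Epithelial cells adhere to each other through E-cadherin, the product of CDH1, whereas mesenchymal cells commonly carry N-cadherin (CDH2) and the intermediate filament protein vimentin (VIM). The transcription factors encoded by SNAI1, SNAI2, ZEB1, ZEB2 and TWIST1 are known to drive the passage from the epithelial to the mesenchymal state, and several of them repress CDH1 by binding E-box words in its promoter. GRHL2 is a transcription factor that maintains epithelial gene expression, and ESRP1 is a splicing regulator of epithelial cells. H3K4me3 is usually found at promoters that are active or poised, and H3K27ac also marks active enhancers.

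Each mark had 1 library, so no value below has a replicate and no test was made. Each peak has a −log10 q, read from the last column of the peak list, which ranks peaks within a list and grows with sequencing depth. Its median was 2.65 for all H3K27ac peaks and 2.97 for all H3K4me3 peaks, and values of different marks are not comparable. The lists hold no read counts, so the depth is unknown, and absence of a peak cannot be told apart from too few reads. The start of a gene means its outermost annotated 5′ end, and a start with a peak no farther than 1 kb away is called marked. The label of the cells was checked at the starts of marker genes. H3K4me3 was present at 5 of 5 simple epithelial markers (KRT7, KRT8, KRT18, KRT19 and EPCAM) and H3K27ac at 4 of them, all but EPCAM, which had H3K27ac at the start of its canonical transcript. Of 3 lung markers, NKX2-1 had both marks, and NAPSA and SFTPB had neither. No peak was found at the starts of the leukocyte markers PTPRC and CD3E, the endothelial marker VWF or the fibroblast markers COL1A1 and COL1A2, although COL1A1 had both marks when the start of any annotated transcript was counted.

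The starts of CDH1, ESRP1 and GRHL2 carried both marks. Among the 7 mesenchymal genes, ZEB1 and SNAI2 had H3K4me3 at the start, none had H3K27ac there, and CDH2, VIM, ZEB2, SNAI1 and TWIST1 had neither mark. Over all 10 genes, H3K4me3 was at 5 starts, against 38.2% of all protein-coding starts. H3K27ac was at 3 starts against 23.6%, and both marks were at the same 3 starts against 18.6%. For the 10 genes as a set, these counts lie near the shares of all genes. Both marks were at 3 of 3 epithelial and 0 of 7 mesenchymal starts, and H3K4me3 was at 2 of 7 mesenchymal starts. The groups are too small to be read against the shares of all genes. At GRHL2, the peaks at the start did not overlap and were below the medians of their lists (2.29 for H3K4me3 and 1.74 for H3K27ac).

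Over the whole windows, the groups overlapped for H3K27ac when each gene was taken alone. Length under H3K27ac was 18.9 bp per kb of window at CDH1, 10.4 at SNAI2, 5.24 at ESRP1, 4.57 at GRHL2 and 2.73 at VIM, and 0 at the other 5 mesenchymal genes. SNAI2 was thus above ESRP1 and GRHL2, and above 75.6% of all protein-coding genes, through 2 peaks downstream of the gene. Summed over each group, the 3 epithelial genes had 18 H3K27ac peaks in 642 kb, or 9.17 bp under peaks per kb, and the 7 mesenchymal genes had 3 peaks in 1429 kb, or 0.967 bp per kb. CDH1 made up 3750 of the 5888 bp of the epithelial genes, and SNAI2 1083 of the 1382 bp of the mesenchymal genes. For H3K4me3, the epithelial genes had 15 peaks (9.12 bp per kb) and the mesenchymal genes 5 (1.02 bp per kb). The windows reach into neighbouring genes. The nearest outer protein-coding start belonged to the 10 genes for 13 of these 15 and 2 of these 5 peaks. For H3K27ac, it did so for 17 of the 18 epithelial and all 3 mesenchymal peaks. The median window of all protein-coding genes had 2.57 bp per kb under H3K27ac and 3.88 bp per kb under H3K4me3. Inside the gene bodies, the epithelial genes had 14 H3K27ac and 11 H3K4me3 peaks, against 0 and 3 in the mesenchymal genes. CDH1 alone held 9 of the 14 and 5 of the 11, and no share of all genes is given here for gene bodies. All 7 H3K27ac peaks that overlapped an H3K4me3 peak by at least 1 bp were in the windows of epithelial genes. The mesenchymal windows held only 3 H3K27ac peaks in which an overlap could occur. Of the 7, 1 in the window of ESRP1 lay 318 bp from the start of DPY19L4. Another, in intron 2 of CDH1, lay in largely repeated sequence, as described below. The overlapping peaks were 7 of the 21, and over the whole list the overlapping share was 24%. Of the 20 H3K4me3 peaks, 5 overlapped H3K27ac, against 31.1% of that list.

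**Figure D1:**
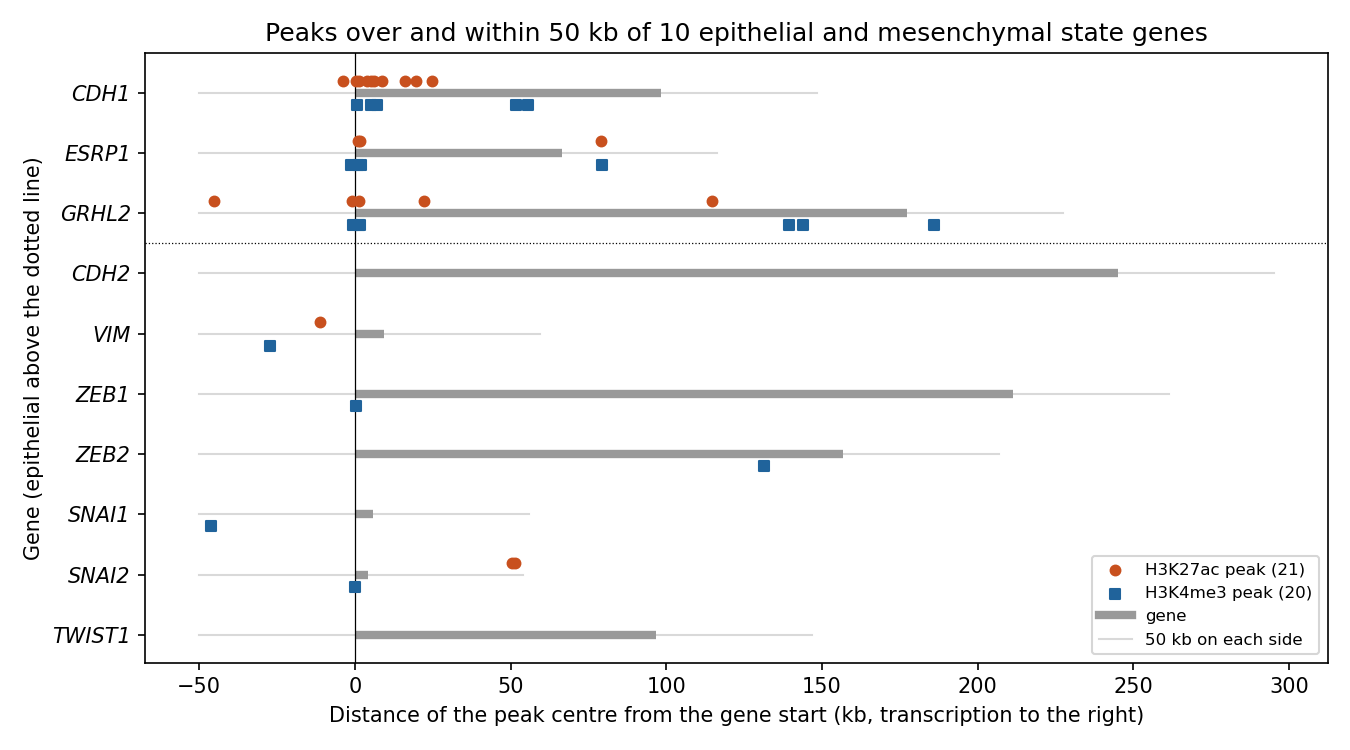
Position of each H3K27ac peak (circles, 21) and H3K4me3 peak (squares, 20) around 10 genes, as the distance of the peak centre from the gene start in kb; thick bars are genes and thin lines the 50 kb on each side. CDH1 had 10 H3K27ac peaks, all within 25 kb of its start, whereas CDH2 and TWIST1 had no peak of either mark.

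CDH1 (ENSG00000039068, chromosome 16, 68771195 to 68869440, plus strand) had the most peaks, 10 of H3K27ac and 5 of H3K4me3. Its first H3K4me3 peak, 1179 bp wide with 3 summits, ran from 66 to 1244 bp downstream of the start over exons 1 and 2, and its −log10 q of 7.20 was above that of 94.7% of the list. An H3K27ac peak (3.69) lay from 56 to 541 bp over exon 1, and another (3.71) from 1169 to 1361 bp at the beginning of intron 2. Both overlapped the H3K4me3 peak. The bases just upstream of the start were not under a peak.

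The remaining H3K27ac peaks of CDH1 formed a series along the 5′ part of the gene. After joining H3K27ac peaks no more than 10 kb apart, all 10 fell into 1 region of 28.8 kb, from 3.89 kb upstream to 24.9 kb downstream of the start. Of the 4606 joined regions in the list with at least 2 peaks, 190 (4.13%) held 10 peaks or more. One peak of this region lay upstream of the gene, 1 over exon 1, and 8 in intron 2. By length under H3K27ac per kb of window (18.9 bp), CDH1 was above 87.1% of all protein-coding genes. The H3K27ac values in intron 2 ranged from 1.74 to 6.26. Other H3K4me3 peaks lay in the same intron at 7120 bp (3.01) and at 51.8 and 55.3 kb (1.58 and 1.55). For the last of these, the nearest outer start was that of TANGO6, 50.7 kb away, whereas an annotated CDH1 transcript starts 8995 bp from the peak centre.

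The highest H3K27ac value at CDH1, 6.26, was not at the start but from 4952 to 5326 bp in intron 2, and an H3K4me3 peak (5.84) from 4978 to 5311 bp lay wholly within it. The shared part covers RNA5SP429, an annotated pseudogene of 5S ribosomal RNA. Of the 32-base words of these peaks, 63.8% and 68.9% occurred more than once in the assembly, whereas none did in the peaks over exon 1. Of the 41 peaks around the 10 genes, 6 had such a share above 50%, and 3 of these were H3K27ac peaks of CDH1 (upstream, at 4952 bp and at 16.1 kb). The part of repeated sequence in these values was not tested.

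The mesenchymal regulator with the clearest mark at its start was ZEB1, which encodes a zinc finger repressor of CDH1 (ENSG00000148516, chromosome 10, 31607424 to 31818742, plus strand). A single H3K4me3 peak of 403 bp lay from 62 to 464 bp downstream of the outer start, before the canonical transcript, which begins at 721 bp, and also over the antisense gene ZEB1-AS1. Its −log10 q of 2.97 equalled the median of the list. No H3K27ac peak lay in the 311 kb of the window, and the nearest was 184 kb upstream of the start. VIM (ENSG00000026025, chromosome 10, 17270240 to 17279592, plus strand), a marker rather than a regulator, had no peak over the gene. Its window held 1 H3K27ac peak 11.2 kb upstream (1.55) and 1 H3K4me3 peak 26968 bp upstream (1.55), and the latter was 781 bp from the start of TRDMT1. SNAI1 (ENSG00000124216, chromosome 20, 48599517 to 48605423, plus strand), a zinc finger repressor of CDH1, also had no peak over the gene. Its only peak, of H3K4me3 (2.23), was 45.9 kb upstream and 455 bp from the start of RNF114, and the nearest H3K27ac peak was 74.2 kb downstream of the start. The 250 bases before the starts of ZEB1 and VIM are set side by side to compare a start with H3K4me3 alone with a start without either mark. The sequences are those of the GRCh37 assembly, 5′ to 3′ in the direction of transcription. Capitals mark the E-box word CAGGTG, or CACCTG on the other strand, to which SNAI and ZEB factors are known to bind, and which occurred once at ZEB1 and not at VIM.
ZEB1 upstream, chr10:31607174-31607423, plus strand: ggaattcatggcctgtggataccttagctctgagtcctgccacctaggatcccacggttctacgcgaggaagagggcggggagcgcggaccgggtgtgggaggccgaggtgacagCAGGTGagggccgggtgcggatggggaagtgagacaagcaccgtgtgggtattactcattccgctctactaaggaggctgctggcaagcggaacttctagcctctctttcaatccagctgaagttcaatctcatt
VIM upstream, chr10:17269990-17270239, plus strand: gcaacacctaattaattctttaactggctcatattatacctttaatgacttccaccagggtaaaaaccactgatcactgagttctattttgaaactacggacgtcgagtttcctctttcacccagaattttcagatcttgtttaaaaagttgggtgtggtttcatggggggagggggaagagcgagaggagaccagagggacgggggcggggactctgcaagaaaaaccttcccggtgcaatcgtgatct

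The word CAGGTG or CACCTG occurred in the 250 bases before 5 of the 10 starts, those of CDH1, ESRP1, GRHL2, ZEB1 and SNAI1, and before 18.4% of all protein-coding starts. The looser E-box CANNTG, which includes these words, occurred before 7 of the 10 starts and 60.6% of all starts. The palindrome ACCGGT, the core of the word that GRHL factors are known to bind, occurred before none of the 10 starts and before 1.64% of all starts. The observed over expected CpG ratio in the 1 kb around the start was at least 0.6 at 6 of the 7 mesenchymal genes and at 2 of the 3 epithelial genes, the exceptions being ZEB2 (0.323) and ESRP1 (0.494). The highest ratios were those of CDH2 (0.987) and TWIST1 (0.859), which had no mark. The median ratio was 0.783 at starts with H3K4me3 and 0.485 at starts without it. A ratio of at least 0.6 was found at 12024 of the 20162 protein-coding starts, and of these 56.3% had H3K4me3 and 32.8% had H3K27ac. Of the 6 mesenchymal genes with such a ratio, ZEB1 and SNAI2 had H3K4me3 and none had H3K27ac. The part of CpG content in these counts was not tested.

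**Figure D2:**
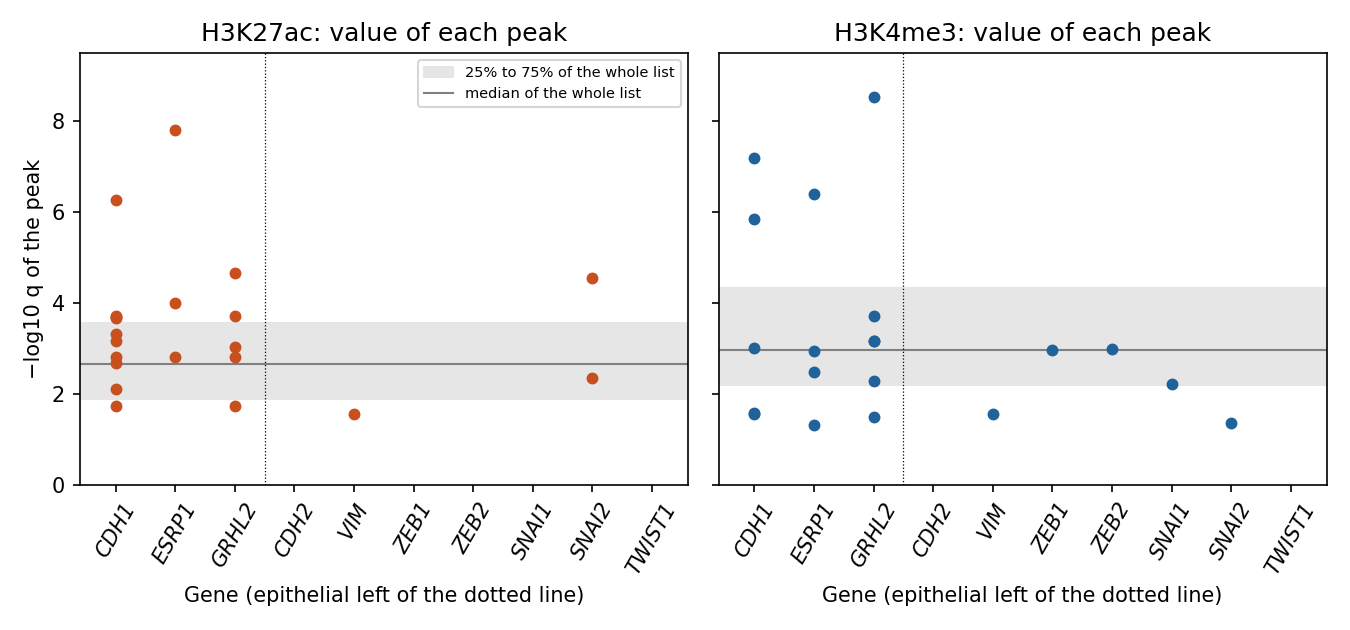
The −log10 q of each peak over or within 50 kb of each gene, for H3K27ac (left) and H3K4me3 (right), with the median (line) and the range from 25% to 75% (grey band) of the whole list of that mark. Values of at least 5 were reached by 2 of 21 H3K27ac and 4 of 20 H3K4me3 peaks, all at CDH1, ESRP1 and GRHL2. In the whole lists, a value of 5.12 for H3K27ac was above 91.6% of the peaks, and 5.11 for H3K4me3 above 83.9%. Of the peaks reaching 5, 1 of each mark (6.26 and 5.84) lay over RNA5SP429 in CDH1, in largely repeated sequence. The highest H3K4me3 value of the mesenchymal genes was 2.98.

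ESRP1 (ENSG00000104413, chromosome 8, 95653302 to 95719694, plus strand) had the highest H3K27ac value of the 10 genes. This peak, from 970 to 1315 bp downstream of the start over exon 2, had a −log10 q of 7.81, above that of 98.7% of the list. It lay wholly within an H3K4me3 peak of 1156 bp (6.39) that ran from 530 to 1685 bp and also overlapped a second H3K27ac peak (2.82) at 1531 bp. The H3K4me3 peaks on its sides were weaker, with 2.49 at 1898 bp over exon 3 and 1.31, the lowest value of the list, upstream of the start. A peak of each mark (4.01 for H3K27ac and 2.95 for H3K4me3) lay 79 kb downstream of the ESRP1 start, 318 and 511 bp from the start of the neighbouring gene DPY19L4. By length under H3K27ac per kb, ESRP1 was above 62.5% of all protein-coding genes.

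GRHL2 (ENSG00000083307, chromosome 8, 102504667 to 102681954, plus strand) had the highest H3K4me3 value of the 10 genes, 8.52, above that of 97.5% of the list. This peak lay from 1108 to 1366 bp downstream of the start in intron 1, where it overlapped an H3K27ac peak (4.65) from 1151 to 1460 bp. Both began just beyond 1 kb from the start. The peaks that marked the start itself were weaker and lay upstream without overlapping, at 675 to 298 bp for H3K4me3 (2.29) and at 978 to 790 bp for H3K27ac (1.74). Farther H3K27ac peaks lay in intron 1 at 22038 bp (2.82), in intron 8 at 114624 bp (3.71) and 45.2 kb upstream (3.03), the last with 54.5% repeated 32-base words. H3K4me3 was also found over exon 10 and in intron 11, at 139 and 144 kb, with a value of 3.16 for each. The centres of these peaks were 475 and 362 bp from the start of an annotated GRHL2 transcript. The remaining H3K4me3 peaks lay at 1636 bp (1.49) and downstream of the gene at 186 kb (3.72), the latter with 81.8% repeated words. By length under H3K27ac per kb, GRHL2 was above 59.6% of all protein-coding genes.

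SNAI2 (ENSG00000019549, chromosome 8, 49830157 to 49834299, minus strand), which encodes the SNAI1 relative SLUG, had an H3K4me3 peak over its outer start, from 121 bp upstream to 158 bp downstream. Its −log10 q of 1.36 was above that of only 3.36% of the list. The window also held H3K27ac peaks of 4.55 and 2.36 downstream of the gene, 50.2 and 51.5 kb from its start and without H3K4me3, and belonged to a joined region of 3 peaks that extends beyond the window. No other mesenchymal gene had an H3K27ac value above 1.55. ZEB2 (ENSG00000169554, chromosome 2, 145121931 to 145278624, minus strand), the ZEB1 relative, had 1 peak, an H3K4me3 peak of 211 bp (2.98) over its last exon, exon 10, 131 kb from the outer start. The nearest outer start of a protein-coding gene was that of GTDC1, 57.1 kb away, whereas an annotated ZEB2 transcript starts 6717 bp from the peak centre. CDH2 (ENSG00000170558, chromosome 18, 25512843 to 25757910, minus strand) and TWIST1 (ENSG00000122691, chromosome 7, 19060614 to 19157259, minus strand), a basic helix-loop-helix factor, had no peak of either mark. The peaks nearest to the TWIST1 start were 348 kb (H3K27ac) and 590 kb (H3K4me3) away.

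The absence of peaks was frequent among all genes. No H3K27ac peak was present over or within 50 kb of 36.1% of the protein-coding genes, and no H3K4me3 peak around 29.8%. Among the 10 genes, CDH2, ZEB1, ZEB2, SNAI1 and TWIST1 lacked H3K27ac in this window, and CDH2 and TWIST1 lacked H3K4me3. GRHL2, CDH2, ZEB1 and ZEB2 are each at least 100 kb long, and among them GRHL2 had H3K27ac. Of the 3666 protein-coding genes of that length, 39.7% had no H3K27ac peak in the window.

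The surroundings of the genes differed as well. Within 1 Mb of the start of CDH2, no peak of either mark was found, and the nearest peaks were 1698 kb (H3K27ac) and 4163 kb (H3K4me3) away. On chromosome 18, only 10.9% of the 266 protein-coding starts had H3K4me3 and 6.02% had H3K27ac. ZEB2 had 0 H3K27ac and 2 H3K4me3 peaks within 1 Mb, and its nearest H3K27ac peak was 3500 kb away. Both genes had 1 other protein-coding start within 1 Mb. VIM, ZEB1 and TWIST1 had between 2 and 5 peaks of each mark within 1 Mb. SNAI1 was the opposite case, with 46 H3K27ac and 24 H3K4me3 peaks within 1 Mb. Of the 21 other protein-coding starts in that span, 14 had H3K4me3 and 9 had H3K27ac, whereas SNAI1 had neither. SNAI2 was intermediate with 20 and 12 peaks. The epithelial genes lay in spans with 33 to 66 H3K27ac peaks, and 22 of 46 other starts near CDH1, 5 of 16 near ESRP1 and 6 of 8 near GRHL2 had H3K27ac. The low counts at CDH2, ZEB2, VIM, ZEB1 and TWIST1 came with few peaks in their surroundings, and that at SNAI1 did not. The part of the surroundings in these counts was not tested.

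**Figure D3:**
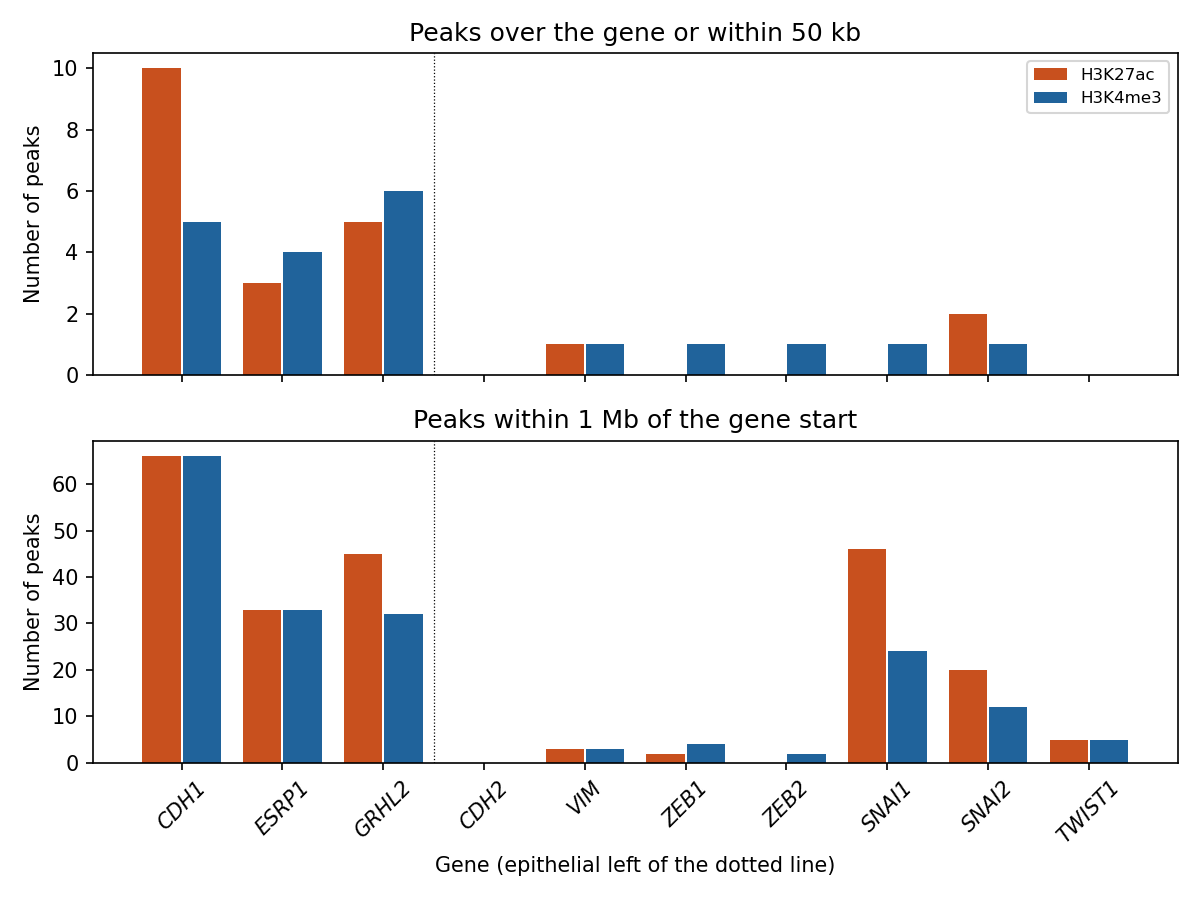
Number of H3K27ac and H3K4me3 peaks over each gene or within 50 kb of it (top) and within 1 Mb of its start (bottom). SNAI1 had 0 H3K27ac peaks in its own window and 46 within 1 Mb, whereas CDH2 had none in either span.

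Other genes of the same states were counted at their starts in the same way. Of 20 further epithelial genes, 13 had H3K4me3, 10 had H3K27ac and 8 had both. KRT8, KRT18, KRT19 and EPCAM among them, and COL1A1 and COL1A2 among the mesenchymal genes below, were already used above to check the label. By the ranks of their values summed over both marks, the first genes were KRT8 (18.9 for H3K4me3 and 14.8 for H3K27ac) and KRT18 (7.64 and 14.8). These are neighbouring keratin genes with the same H3K27ac value, so 1 H3K27ac peak may have been counted at both starts, here and in the check of the label. Whether it was the same peak was not examined. GRHL1, a relative of GRHL2, had 5.42 and 3.66, and RAB25, a small GTPase of epithelial cells, had 5.76 and 3.46. GRHL3, OVOL1, EHF, SPINT2 and CLDN4 had neither mark at the outer start. With the start of the canonical transcript, SPINT2 and CLDN4 had both marks. Of 22 further mesenchymal genes, 3 had H3K4me3 (LOX, ACTA2 and SNAI3), 2 had H3K27ac (FOXC2 and S100A4), and none had both. LOX, which encodes an enzyme that crosslinks collagen, had 5.62 for H3K4me3, and ACTA2, which encodes smooth muscle actin, had 2.97. FOXC2, a forkhead transcription factor, had 3.55 for H3K27ac, and S100A4, a calcium-binding protein, had 3.17. The remaining 17 genes had neither mark at the outer start. When the start of any annotated transcript was counted, COL1A1 had both marks, and TCF3 and TNC had H3K4me3. The shares of all protein-coding genes were 38.2% for H3K4me3 and 23.6% for H3K27ac at outer starts. They were 41.3% and 25.2% at canonical starts, and 45.4% and 30.7% with any annotated transcript start. Of the 20 epithelial genes, 16 had H3K4me3 with either of these other starts, and 13 (canonical) or 15 (any) had H3K27ac. Of the 22 mesenchymal genes, 2 (canonical) or 6 (any) had H3K4me3, and 1 or 3 had H3K27ac. Of 4 catenin genes, whose products are partners of cadherins, only JUP had H3K4me3 (3.71) at the outer start. CTNNA1, CTNNB1 and CTNND1 had neither mark there. With the start of the canonical transcript, CTNNA1 and JUP had both marks.

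**Figure D4:**
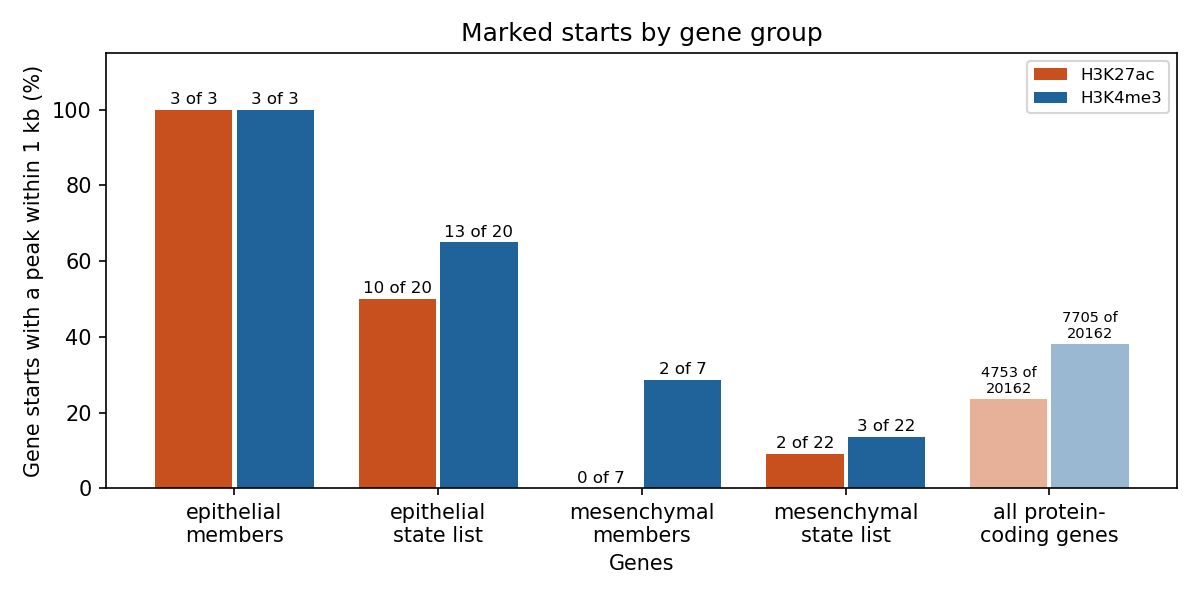
Share of gene starts with an H3K27ac or H3K4me3 peak within 1 kb, with the number of genes above each bar, for the 10 genes, for further genes of either state and for all protein-coding genes. The epithelial groups had 3 of 3 and 13 of 20 starts with H3K4me3, and the mesenchymal groups 2 of 7 and 3 of 22.

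ZEB1 and ZEB2 are known targets of the miR-200 family, microRNAs of epithelial cells whose genes the ZEB proteins in turn repress. The 5 genes form a cluster of 3 on chromosome 1 (MIR200B, MIR200A and MIR429) and a pair on chromosome 12 (MIR200C and MIR141). The mature sequences, taken from RefSeq with the seed (bases 2 to 8) in capitals, are shown because the seed pairs with the target messages and divides the family into those with AAUACUG and those with AACACUG.
hsa-miR-200b-3p: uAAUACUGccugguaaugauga
hsa-miR-200c-3p: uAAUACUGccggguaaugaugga
hsa-miR-429: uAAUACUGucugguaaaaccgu
hsa-miR-200a-3p: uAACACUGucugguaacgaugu
hsa-miR-141-3p: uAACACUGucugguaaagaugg
Both clusters contain a gene of either seed group, and both had peaks of both marks within 10 kb, a distance for which no share of all genes is given here. On chromosome 1, no H3K4me3 peak lay within 1 kb of a gene. The nearest was 1.62 kb from MIR200B, and MIR429 was 1.2 kb from its nearest H3K27ac peak. MIR200C lay under an H3K4me3 peak of 773 bp (chr12:7072458-7073230) with a −log10 q of 7.36, above that of 95.3% of the list, which ended 30 bp before MIR141. An H3K27ac peak (5.12, above 91.6% of its list) lay from 406 to 162 bp upstream of MIR200C. Of the 5 H3K27ac and 4 H3K4me3 peaks within 10 kb of this pair, 2 and 1 lay within 1 kb of the start of PHB2. In the cluster on chromosome 1, 6 H3K27ac and 3 H3K4me3 peaks were found within 10 kb of the genes, and the nearest protein-coding start was that of TTLL10. H3K4me3 (5.11) and H3K27ac (3.999) overlapped from 1811 to 1624 bp upstream of MIR200B, and an H3K27ac peak (2.44) lay 58 bp upstream of MIR200A.

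**Figure D5:**
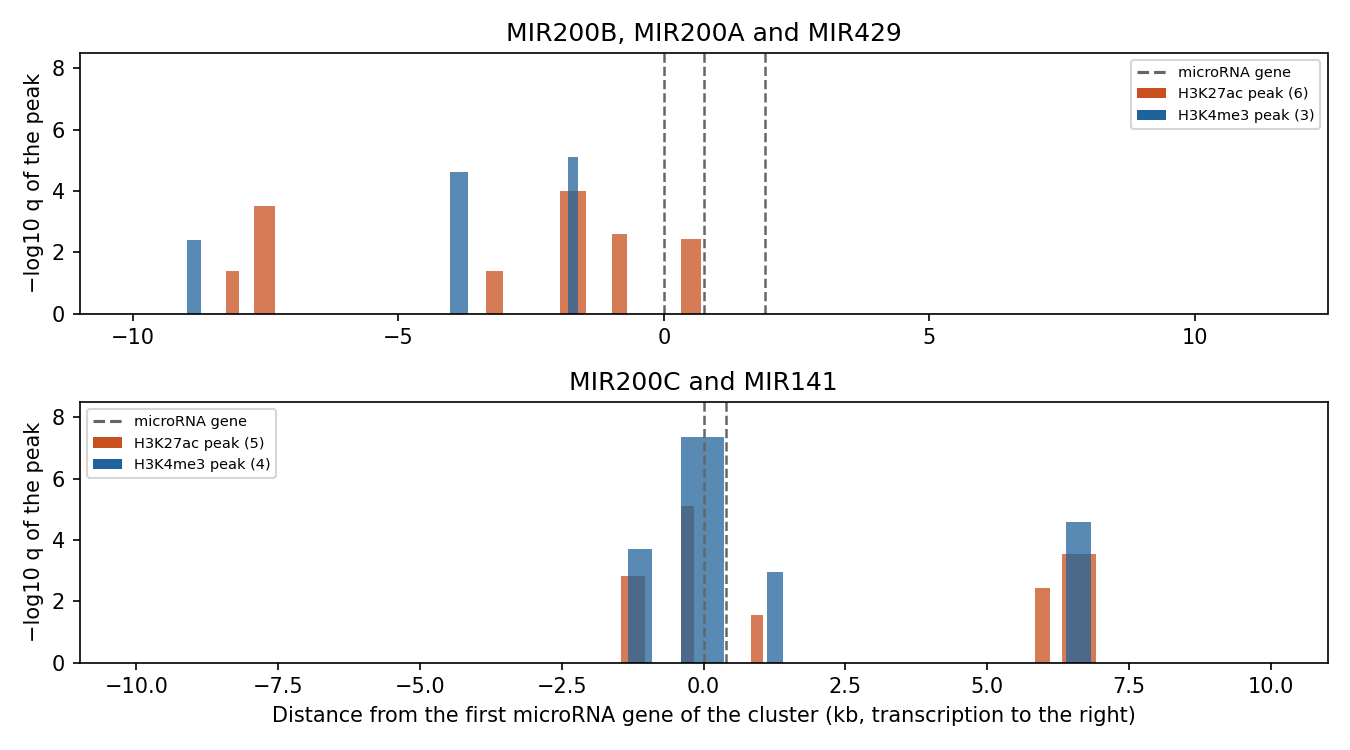
Peaks around the miR-200 genes on chromosome 1 (top) and chromosome 12 (bottom), each drawn at its distance in kb from the first microRNA gene of the cluster with its −log10 q as height; dashed lines are the starts of the microRNA genes. The highest peak, H3K4me3 with 7.36, covers MIR200C, and the peaks about 6 kb downstream of it lie at PHB2.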

How the data were processed

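The peak lists of H3K27ac and H3K4me3 in H2087 cells were used, with 1 library per mark. By the study's methods and the submitters' processing notes, alignment to hg19 used Bowtie 1.1.1, peak calling MACS2 2.1.0 and gene assignment, not used here, ChIPseeker 1.6.6. The notes also name bcl2fastq 1.8.4, SAMtools 1.2 and Picard 1.118, without their roles. The calling threshold and the use of the input in the calling are not given in the sources used here. The deposited last column has no header and was read as −log10 q, because its lowest values (1.303 and 1.306) lie just above 1.301, which is a q of 0.05.

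Entries with the same coordinates were counted once with the highest value, and starts were made 1-based. Genes came from GENCODE 44 mapped to GRCh37, without PAR copies on chromosome Y, and PECAM1, an endothelial marker, was not matched. Words and CpG ratios were read from the GRCh37 assembly, some sequences of which are not reported here, and repeated words were counted for 32-base words taken every 5 bases. Mature microRNA sequences were taken from RefSeq (GRCh38.p14), where all 5 were matched. Python 3.11.15, numpy 2.4.6 and pysam 0.24.0 were used, and the interval code was tested on simulated intervals. The 10 genes and the further lists were chosen with earlier results of these data known. All 10 genes are named and, of each further list, the 4 genes with the highest values at the start by ranks summed over both marks, not by the higher value alone, and those without a peak where 5 or fewer. SNAI3, TCF3 and TNC were named after their values were seen. The alternatives changed the distance to a start, the start used, the window, the minimum value, the overlap and the merging of peaks, and other starts for the further lists and the removal of repeated peaks were added after seeing the data.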

Additional observations from a re-analysis of the deposited data

How the results depend on the processing

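No paired analysis was possible because only 1 library per mark was listed, and leaving out a replicate was likewise not possible. For 13 counts, 45 alternative values were computed, of which 14 were added after seeing the data; 33 stayed within 1.5 times the reported count and 12 did not. With a start within 3 kb of a peak, the start of any transcript or that of the canonical transcript, the same 5 genes had H3K4me3 and the same 3 had H3K27ac. In that order, the shares of all protein-coding starts were 43.3%, 45.4% and 41.3% for H3K4me3, and 29.9%, 30.7% and 25.2% for H3K27ac. With peaks at or above the median of their list, 3 genes (CDH1, ESRP1 and ZEB1) kept H3K4me3 at the start (26.8% of all protein-coding starts), GRHL2 lost H3K27ac, which left 2 genes (CDH1 and ESRP1) with both marks (10.0%), and 10 H3K4me3 peaks were left around the 10 genes. With values of at least 5, H3K4me3 was left at 2 starts (10.7% of all starts), H3K27ac at 1 (3.53%) and both marks at 1 (1.56%). With 100 kb on each side, 35 H3K27ac peaks were counted. With canonical starts, 2 of the 4 catenin genes had H3K27ac and 2 had H3K4me3, and 1 further mesenchymal gene had H3K27ac. With any transcript start, these were 2 and 3 of the catenin genes, and 6 further mesenchymal genes had H3K4me3. Each of these alternatives by construction adds or removes peaks or starts. With 10 kb on each side, VIM and SNAI2 had no H3K27ac peak and so fell from above 51.0% and 75.6% of all genes by H3K27ac density to 0. The absence of a peak is limited by the unknown depth.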
